A study of Homo sapiens with 6 samples.

Results

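The comparison set PARP1 knockout MDA-MB-231 cells carrying a short hairpin RNA (shRNA) against SUZ12 beside PARP1 knockout cells carrying an shRNA against EZH2. Both lines lacked PARP1, so the comparison asks where targeting SUZ12 and targeting EZH2 gave different messenger RNA levels in the same knockout background. It used 4 of the 6 libraries, taken by their labels, 2 of the shSUZ12 line and 2 of the shEZH2 line, and asked of each gene whether both shSUZ12 libraries lay on the same side of both shEZH2 libraries. The other 2 libraries came from wild-type cells with a nontargeting shRNA (the control). They are given beside the lines as a level to read against. All cells were MDA-MB-231, cells of a human breast tumour without hormone receptors or HER2 amplification, at passage 5 to 10, grown for 2 days in DMEM with 10% fetal bovine serum. Column-purified RNA was made into stranded poly(A) libraries and sequenced on an Illumina NextSeq500. No group lacked PARP1 alone and none carried an shRNA against a PRC2 subunit with PARP1 present, and the labels give 1 knockout background with no clone named. Nothing in the labels says that the libraries of a line came from separate cultures, so a p-value sets a difference against the spread of these libraries, part of which may be technical.

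Polycomb repressive complex 2 (PRC2) places methyl groups on lysine 27 of histone H3, a mark of silenced genes that is found mostly at CpG-rich promoters. EZH2 is its methyltransferase subunit, and SUZ12 is the scaffold that holds EZH2, EED and the accessory subunits together. EZH1 can take the place of EZH2 in the complex, whereas SUZ12 is shared by both forms. PARP1 makes poly(ADP-ribose) at DNA breaks and also binds chromatin at many genes.

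Levels are given as CPM, the reads of a gene scaled to a common library size by TMM, the trimmed mean of M values, and are compared between libraries and not between genes. Gene counts per library ranged from 20135270 to 22782742, and 3 counts, taken as the floor, were worth 0.134 to 0.153 CPM. The libraries carried the markers of the line. VIM, the mesenchymal filament protein vimentin, was at 3576 and 3650 CPM with shSUZ12, 3429 and 5144 CPM with shEZH2 and 3169 and 2941 CPM in control, and ESR1, the oestrogen receptor gene, had 0 counts in all 6. Of 19 blood cell markers in the deposited counts, 15 were under 1 CPM in every library and 9 had 0 counts, among them CD3D and TYROBP, and of 10 endothelial markers 5 were under 1 CPM in every library, CDH5 and EMCN with 0 counts. The summed level of the 10 was 186 and 208 CPM with shSUZ12, 136 and 178 CPM with shEZH2 and 245.9 and 231.03 CPM in control, most of it from ESAM and ROBO4. The lines were not equally tight. Between its 2 libraries, 0.254% of tested genes were over 2-fold apart in the shSUZ12 line, 10.96% in the shEZH2 line and 0.719% in control (CPM + 0.5). For that reason many results below are also read against each shEZH2 library by itself. For the others only the joint difference is given.

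The targeted genes were read first. PARP1 (chromosome 1, 226360691 to 226408079, minus strand, GRCh38) was at 28.6 and 26.5 CPM with shSUZ12, 33.6 and 28.6 CPM with shEZH2 and 425 and 360 CPM in control. Both lines lay far below control and overlapped each other (log2 difference -0.17 ± 0.18, SE). EZH2 (chromosome 7, 148807383 to 148884321, minus strand) was at 201 and 221 CPM with shSUZ12, 53.1 and 63.4 CPM with shEZH2 and 199 and 188 CPM in control. It was higher in the shSUZ12 line by 1.86 ± 0.18 on the log2 scale (adjusted p = 0.00917, edgeR quasi-likelihood, Benjamini-Hochberg over all genes, n = 2 per line), and the shSUZ12 libraries lay at or above the control level. The call was lost when either control library or either shSUZ12 library was left out (edgeR adjusted p from 0.0734 to 0.121), with the difference between 1.79 and 1.92. SUZ12 (chromosome 17, 31937018 to 32001045, plus strand) was at 76.0 and 70.3 CPM with shSUZ12, 130 and 53.1 CPM with shEZH2 and 134 and 133 CPM in control. SUZ12 mRNA therefore did not separate the lines: the shSUZ12 libraries lay between the shEZH2 libraries, and the difference was -0.32 ± 0.37. Without shEZH2 replicate 1 the difference was 0.46, and without shEZH2 replicate 2 it was -0.86. EED, the third core subunit, was at 46.4 and 48.8 CPM in the shSUZ12 line and 53.3 and 53.5 CPM in the shEZH2 line, with 86.5 and 78.1 CPM in control, and its difference between the lines did not pass the test (-0.17 ± 0.17). EZH1, the alternative methyltransferase, overlapped between the lines, at 31.7 and 37.3 CPM with shSUZ12 and 26.3 and 32.2 CPM with shEZH2. Of 13 tested PRC2 subunits EZH2 was the 1 called, and of 23 tested PRC1 subunits, of 23 PARP family genes and of 12 writers and erasers of histone marks at lysines 27 and 4, 0 were called in edgeR's test. At an unadjusted p under 0.05 these lists held 2, 6 and 1 genes in edgeR's test, and DESeq2 called 1, 1 and 0. Among all 14192 tested genes, edgeR had 3387 at an unadjusted p under 0.05, and DESeq2 called 1304 genes in all.

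Across all genes, 14192 were tested and 216 were called at an adjusted p under 0.05 (1.52% of those tested). Of these, 103 (0.726%) were higher and 113 (0.796%) lower in the shSUZ12 line. All 216 had libraries that did not overlap between the lines, with log2 differences of 0.85 or more in size and a median size of 1.75. Non-overlap alone was far more common: 7750 genes (54.6%) had it, 3983 (28.1%) higher and 3767 (26.5%) lower in the shSUZ12 line, so it is a weak mark of a single gene. A difference above 0, which is used for lists below, was found for 52.7%. Counts called in a list are to be read against the 1.52% called among all tested genes. List counts at an unadjusted p under 0.05 are to be read against 3387 of the 14192 in edgeR's test. Those called by DESeq2 are to be read against its 1304 calls. The lists were chosen with earlier results of these data known, so a high share called in a list is partly built in. A gap of at least 2-fold between the nearest libraries of the lines was rarer, at 275 genes (1.94%), with 155 (1.09%) higher and 120 (0.846%) lower. The count of calls rests on the tight shSUZ12 and control libraries. It was 0 in edgeR's test when either shSUZ12 library was left out (1285 or 1485 genes at an unadjusted p under 0.05) and 1 (MUC5AC) when either control library was left out or when the 4 libraries were fitted by themselves, and 7590 or 3536 when shEZH2 replicate 1 or 2 was left out, where the spread comes from the other lines only. For 1 gene by itself, 2 against 2 libraries allow no exact permutation p below 0.333. No gene called and named here changed direction in any of 16 alternative fits. All of these genes have libraries that do not overlap, so such a change was unlikely from the start and its absence adds little.

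**Figure D1:**
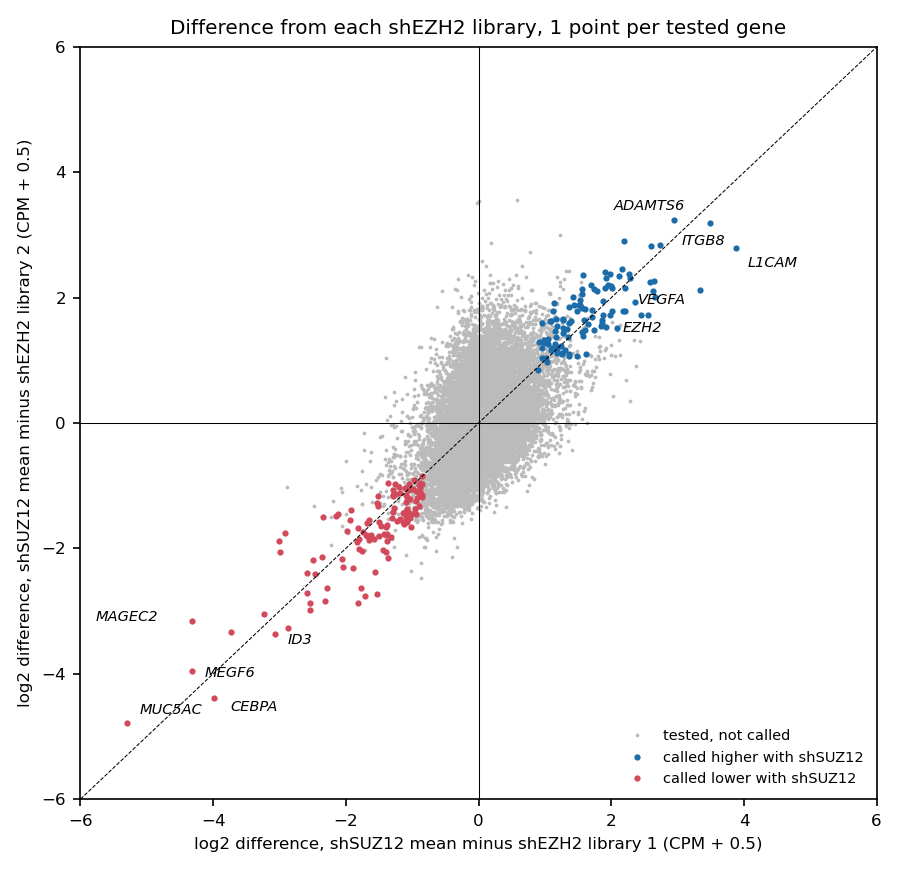
Difference between the mean of the shSUZ12 libraries and shEZH2 library 1 (horizontal axis) or shEZH2 library 2 (vertical axis), as log2 of CPM + 0.5, for 14192 tested genes. The 103 genes called higher (blue) and the 113 called lower (red) with shSUZ12 lie near the dashed line of equal difference, with MUC5AC and CEBPA farthest towards the lower left, while the cloud of uncalled genes is wider along the vertical axis.

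The control level was set beside both lines. For 103 of the 216 called genes (47.7%) both control libraries lay between the lines, for 40 (18.5%) they lay beyond the shSUZ12 side and for 13 (6.02%) beyond the shEZH2 side. In the remaining 60 (27.8%) the control overlapped a line. Over all 7750 genes that did not overlap, these shares were 13.9% between the lines, 22.0% beyond shSUZ12, 5.79% beyond shEZH2 and 58.3% overlapping a line. The called genes all had log2 differences of 0.85 or more in size, which leaves more room for control libraries between the lines. The 7750 were not chosen by size, so no conclusion is drawn from 47.7% against 13.9%. The control mean was nearer to the shSUZ12 mean for 156 of the 216 (72.2%), close to the 69.6% found over all 7750 genes that did not overlap.

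The genes higher in the shSUZ12 line with the widest gap were led by extracellular and adhesion genes. ADAMTS6, a secreted metalloproteinase (chromosome 5, 65148736 to 65481920, minus strand), was at 14.0 and 9.53 CPM with shSUZ12, 0.578 and 0.817 CPM with shEZH2 and 3.196 and 2.18 CPM in control. The lines lay on opposite sides of control, 4.07 ± 0.39 apart on the log2 scale (edgeR adjusted p = 0.00917), and with ADAMTS14 it made 2 called among 33 tested proteases and inhibitors of the MMP, ADAM and ADAMTS list. L1CAM, a neural adhesion molecule (chromosome X, 153861514 to 153886174, minus strand), was at 95.2 and 80.0 CPM with shSUZ12, 5.49 and 12.2 CPM with shEZH2 and 135 and 116 CPM in control. Here the shEZH2 line was the one far from control, and the lines differed by 3.31 ± 0.37 (edgeR adjusted p = 0.0154). ITGB8, an integrin beta subunit that binds latent TGF-beta, had 155 and 81 counts in the shSUZ12 line, 5 and 2 counts in the shEZH2 line and 41 and 74 counts in control, and was higher in the shSUZ12 line by 4.92 ± 0.62.

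LRP1, an endocytic receptor for proteases and lipoproteins (chromosome 12, 57128493 to 57213351, plus strand), was at 160 and 156 CPM with shSUZ12, 34.8 and 28.5 CPM with shEZH2 and 57.6 and 57.7 CPM in control. It was above control in the shSUZ12 line and below it in the shEZH2 line, with a difference of 2.32 ± 0.19 (edgeR adjusted p = 0.00507). SOX4, a developmental transcription factor (chromosome 6, 21592768 to 21598619, plus strand), had the same order, with 124 and 103 CPM with shSUZ12, 23.1 and 21.3 CPM with shEZH2 and 47.8 and 63.6 CPM in control (2.35 ± 0.22). BMF, a pro-apoptotic member of the BCL2 family, was at 10.4 and 8.72 CPM with shSUZ12, 1.11 and 1.58 CPM with shEZH2 and 3.196 and 2.37 CPM in control. It was 1 of 14 tested BCL2 family genes called.

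NUP210, a nuclear pore membrane protein, stood below control in both lines, at 10.5 and 10.2 CPM with shSUZ12, 0.578 and 1.99 CPM with shEZH2 and 89.1 and 91.6 CPM in control, and the lines still differed by 3.02 ± 0.44. NRK, PAPPA2 and TNFSF15 were near control in the shEZH2 line and above it in the shSUZ12 line. TNFSF15, a cytokine of the TNF family, was at 8.13 and 9.34 CPM with shSUZ12, 1.83 and 1.28 CPM with shEZH2 and 1.04 and 2.09 CPM in control. SLCO4C1, an organic anion transporter, FILIP1L and the cadherin gene FAT3 were also among the 15 genes, with log2 differences of 3.47 ± 0.60, 2.48 ± 0.31 and 2.09 ± 0.23.

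**Figure D2:**
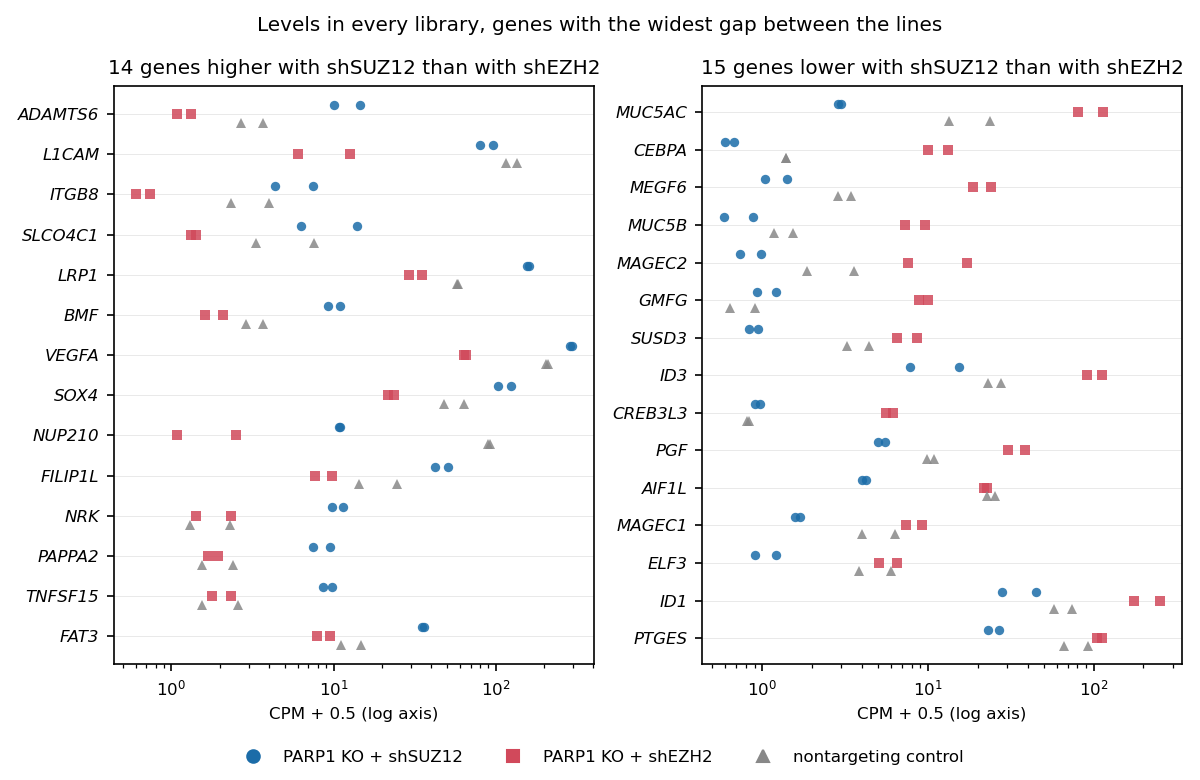
CPM + 0.5 (log axis) in each of the 6 libraries for 14 of the 15 called genes higher and the 15 lower in the shSUZ12 line with the widest gap between the nearest libraries of the lines. Each point is 1 library; the shSUZ12 and shEZH2 points never overlap for these genes, and the control points (grey) lie between the lines for ADAMTS6, LRP1, MUC5AC and ID3, by shSUZ12 for GMFG and CREB3L3 and by shEZH2 for PAPPA2 and AIF1L.

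The genes lower in the shSUZ12 line included 2 secreted gel-forming mucins of chromosome 11, MUC5AC and MUC5B. MUC5AC (1157953 to 1201138, plus strand) was at 2.37 and 2.48 CPM with shSUZ12, 114 and 79.7 CPM with shEZH2 and 12.9 and 23.1 CPM in control. It lay below control with shSUZ12 and above it with shEZH2, fell by 5.32 ± 0.38 on the log2 scale and had an edgeR adjusted p of 0.0046. MUC5AC also passed in the fit of the 4 libraries alone (edgeR adjusted p = 0.0444). MUC5B, its neighbour (1223066 to 1262172, plus strand), had 2 and 8 counts in the shSUZ12 line, 188 and 133 counts in the shEZH2 line and 15 and 22 counts in control, and fell by 5.06 ± 0.54. These were the 2 called among 5 tested mucins (1.52% of all tested genes were called). MUC1, a membrane mucin on chromosome 1, ran the other way at 3.48 and 3.05 CPM with shSUZ12 and 0.867 and 2.20 CPM with shEZH2, without passing the test. MUC6 overlapped between the lines, at 1.03 and 0.429 CPM with shSUZ12 and 0.241 and 0.970 CPM with shEZH2.

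CEBPA, a C/EBP transcription factor of myeloid, liver and fat cell differentiation (chromosome 19, 33299934 to 33302564, minus strand), had 4 and 2 counts in the shSUZ12 line, 199 and 251 counts in the shEZH2 line and 20 and 19 counts in control. Its fitted difference was -6.28 ± 0.42 (edgeR adjusted p = 0.0046), the shSUZ12 libraries being close to the floor. CEBPA was 1 of 5 tested C/EBP genes called. ELF3, CREB3L3 and FOXA3, transcription factors of epithelia and liver, were also lower in the shSUZ12 line. CREB3L3 was at 0.402 and 0.477 CPM with shSUZ12, 5.11 and 5.67 CPM with shEZH2 and 0.315 and 0.332 CPM in control, so the shEZH2 line was the one that stood out. ELF3 was at 0.402 and 0.715 CPM with shSUZ12, 4.58 and 5.98 CPM with shEZH2 and 3.33 and 5.51 CPM in control, so there the shSUZ12 line stood out. FOXA3 was at 1.12 and 1.48 CPM with shSUZ12, 5.01 and 5.67 CPM with shEZH2 and 0.765 and 0.522 CPM in control.

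Developmental regulators as a list showed little common shift. Of 64 tested developmental transcription factors, SOX4 was called higher and CREB3L3, ELF3 and FOXA3 lower. In all, 21 of the 64 lay apart on the higher side and 19 on the lower side, against 28.1% and 26.5% of all tested genes. The median difference of the list was 0.04, the same as the median of all tested genes (0.04). HOXB3, a homeobox gene, was the 1 called of 11 tested HOX genes, at 5.05 and 4.24 CPM with shSUZ12, 1.06 and 0.97 CPM with shEZH2 and 2.61 and 3.85 CPM in control (2.19 ± 0.34).

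MAGE cancer-testis antigens, genes normally silent outside the germ line, included 3 called lower and 0 called higher among 9 tested. Of all tested genes, 0.796% were called lower and 0.726% higher. MAGEC2 (chromosome X, 142202345 to 142205290, minus strand) had 11 and 5 counts in the shSUZ12 line, 345 and 139 counts in the shEZH2 line and 68 and 29 counts in control, a fall of 4.99 ± 0.65 on the log2 scale. Its neighbour MAGEC1 (141903894 to 141909388, plus strand) was at 1.07 and 1.19 CPM with shSUZ12, 8.67 and 6.90 CPM with shEZH2 and 5.85 and 3.51 CPM in control. MAGEA3 had 4 and 2 counts with shSUZ12, 95 and 42 counts with shEZH2 and 92 and 44 counts in control. MAGEA3 has near-identical copies, and multimapping reads were counted apart and left out, so its counts may miss reads. MAGED1, MAGED2, MAGEE1 and MAGEF1, which are expressed in many tissues, overlapped between the lines. The median over the 9 genes was -0.26, being -0.46 without shEZH2 replicate 1, -0.21 without shEZH2 replicate 2 and -0.01 with the length trend of the libraries removed.

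Bone morphogenetic proteins (BMPs) signal through paired type I and type II receptors to SMAD1, SMAD5 and SMAD9, which switch on the ID genes and the inhibitor SMAD6. ID proteins bind basic helix-loop-helix factors and keep them from DNA. Of 29 tested genes of the pathway, 5 were called lower in the shSUZ12 line and 0 higher, against 0.796% and 0.726% of all tested genes. The called ones were all targets or feedback genes. The median of the list was -0.27, and 16 of the 29 had a negative difference. This median rests on both shEZH2 libraries: it was -0.06 without shEZH2 replicate 1, -0.09 without shEZH2 replicate 2 and -0.17 with the length trend of the libraries removed.

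Among the targets, ID1 (chromosome 20, 31605283 to 31606515, plus strand) was at 27.5 and 44.4 CPM with shSUZ12, 175 and 252 CPM with shEZH2 and 73.4 and 56.9 CPM in control. ID1 fell by 2.57 ± 0.31 (edgeR adjusted p = 0.0191), with the control between the lines. ID3 (chromosome 1, 23557918 to 23559794, minus strand) was at 7.28 and 14.8 CPM with shSUZ12, 91.4 and 112 CPM with shEZH2 and 27.01 and 22.7 CPM in control, and fell by 3.203 ± 0.35. ID2 (chromosome 2, 8678845 to 8684453, plus strand) was at 0.357 and 0.524 CPM with shSUZ12, 4.29 and 3.63 CPM with shEZH2 and 0.585 and 0.760 CPM in control, and fell by 3.16 ± 0.39. The shSUZ12 libraries were thus below the shEZH2 libraries for these genes, and for ID2 they were near control. ATOH8, a helix-loop-helix factor that BMPs induce, was at 2.59 and 3.62 CPM with shSUZ12, 12.0 and 25.5 CPM with shEZH2 and 8.51 and 11.6 CPM in control (a fall of 2.60 ± 0.41). SMAD6, which was picked out after its values were seen, was at 3.89 and 4.19 CPM with shSUZ12, 12.3 and 13.1 CPM with shEZH2 and 3.15 and 2.66 CPM in control (edgeR adjusted p = 0.0309). ID4 pointed the same way without passing, at 2.64 and 2.19 CPM with shSUZ12 against 7.42 and 6.03 CPM with shEZH2 (edgeR adjusted p = 0.0598), and HEY1 and SMAD7 differed by 0.07 each.

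Among ligands, receptors and carriers of the signal, none passed edgeR's test. BMP4, a ligand, was at 142 and 168 CPM with shSUZ12, 86.5 and 129 CPM with shEZH2 and 256 and 267 CPM in control, higher and not called. BMP2 was at 3.08 and 3.003 CPM with shSUZ12 and 5.16 and 3.17 CPM with shEZH2, lower and not called. The receptors BMPR1A and BMPR2 were higher with shSUZ12 by 0.63 ± 0.34 and 0.68 ± 0.41, and BMPR1B had a difference of -1.21 ± 0.40, none of them passing. SMAD1 and SMAD5 overlapped between the lines. SMURF2, a ubiquitin ligase that turns over receptors and SMADs, was at 270 and 250 CPM with shSUZ12, 172 and 118 CPM with shEZH2 and 379 and 329 CPM in control (edgeR adjusted p = 0.088).

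**Figure D3:**
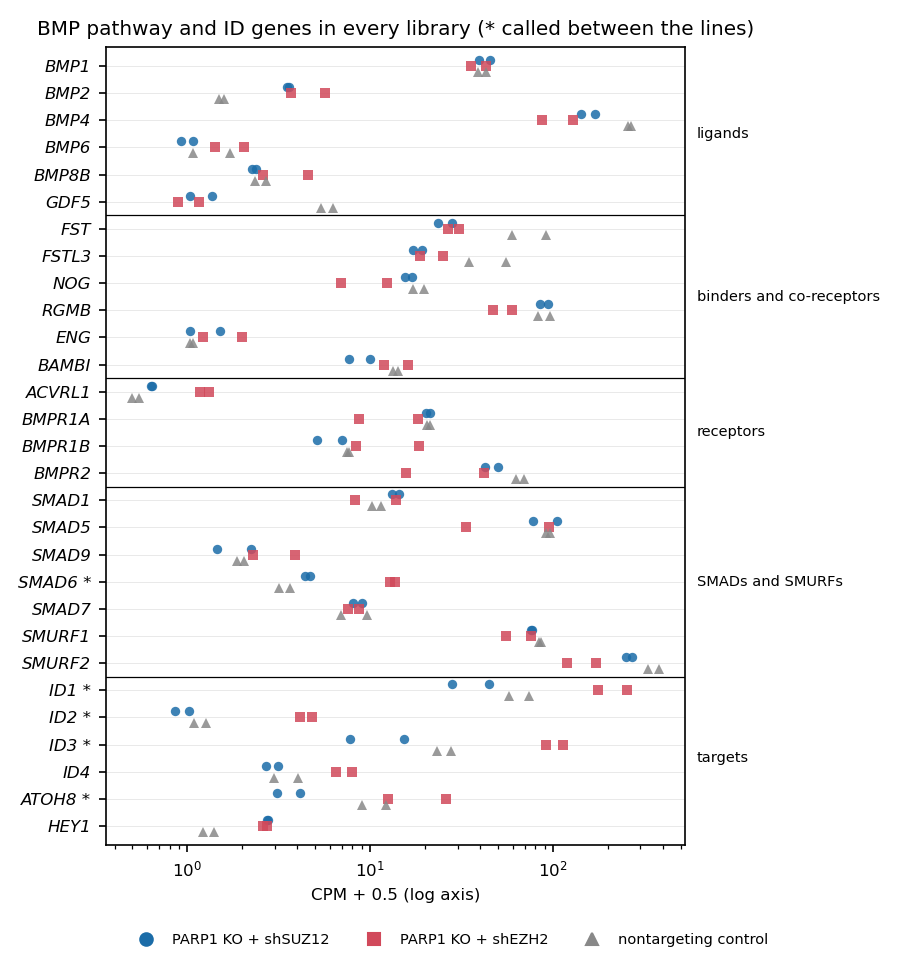
CPM + 0.5 (log axis) in each library for the 29 tested BMP pathway and ID genes, ordered by role, with an asterisk on the 5 called between the lines. Among the targets the shSUZ12 points (blue) lie left of the shEZH2 points (red) for ID1, ID2, ID3, ID4 and ATOH8, while ligands and receptors lie on either side or overlap.

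Promoter sequence was looked at because PRC2 is found mostly at CpG-rich starts. The 240 bases ending 10 bases before the RefSeq transcription start (RefSeq, GRCh38.p14) are printed for ID1 and SMAD6, called lower, and for LRP1, called higher. Capitals mark each CG pair.
ID1, chr20:31605039-31605278, plus strand: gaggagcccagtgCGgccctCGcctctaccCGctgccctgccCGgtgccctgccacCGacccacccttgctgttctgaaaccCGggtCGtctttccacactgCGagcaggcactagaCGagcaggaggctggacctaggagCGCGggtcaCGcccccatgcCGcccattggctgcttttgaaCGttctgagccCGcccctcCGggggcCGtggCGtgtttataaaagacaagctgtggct
SMAD6, chr15:66701986-66702225, plus strand: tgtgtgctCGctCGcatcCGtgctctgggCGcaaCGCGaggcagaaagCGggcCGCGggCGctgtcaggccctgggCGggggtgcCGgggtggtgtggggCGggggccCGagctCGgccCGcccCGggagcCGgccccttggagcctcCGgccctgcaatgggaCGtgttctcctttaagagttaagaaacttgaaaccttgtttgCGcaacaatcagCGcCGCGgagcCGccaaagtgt
LRP1, chr12:57128233-57128472, plus strand: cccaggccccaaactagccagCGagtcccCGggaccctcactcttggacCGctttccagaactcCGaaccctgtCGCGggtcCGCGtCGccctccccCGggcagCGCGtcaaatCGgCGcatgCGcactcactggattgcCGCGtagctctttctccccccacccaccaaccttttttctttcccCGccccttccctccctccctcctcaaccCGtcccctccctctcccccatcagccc
These windows hold 18 CG pairs in ID1, 25 in SMAD6 and 19 in LRP1. Over called genes with a window in the table, the median was 17 CG pairs for the 74 higher in the shSUZ12 line and 19 for the 91 lower, against 20 over 10482 tested genes, of which 98.7% held at least 1. The medians of the called genes were thus below that of the tested genes at large.

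Angiogenic factors of one family moved in opposite directions. VEGFA, the main ligand for blood vessel growth (chromosome 6, 43770184 to 43786487, plus strand), was at 295 and 288 CPM with shSUZ12, 62.8 and 64.8 CPM with shEZH2 and 205 and 210 CPM in control. VEGFA was higher in the shSUZ12 line by 2.19 ± 0.16 (edgeR adjusted p = 0.0046), both shEZH2 libraries lying well below control. PGF, placental growth factor, which binds 1 of the VEGF receptors (chromosome 14, 74941834 to 74955784, minus strand), was at 4.51 and 5.00 CPM with shSUZ12, 29.9 and 38.1 CPM with shEZH2 and 10.4 and 9.40 CPM in control. It fell by 2.84 ± 0.23 (edgeR adjusted p = 0.00507). These were the 2 called among 14 tested genes of the list. The co-receptor NRP2 was at 21.7 and 23.3 CPM with shSUZ12, 11.6 and 9.45 CPM with shEZH2 and 29.6 and 25.0 CPM in control (edgeR adjusted p = 0.0541). PDGFB was at 3.31 and 3.29 CPM with shSUZ12, 0.578 and 0.970 CPM with shEZH2 and 3.33 and 1.95 CPM in control (edgeR adjusted p = 0.0585).

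The hypoxia and glycolysis list, in which VEGFA is not counted, had a median of 0.13 over 42 tested genes, with BNIP3L, a mitophagy receptor, the 1 called. BNIP3L was at 103 and 77.6 CPM with shSUZ12, 39.1 and 39.3 CPM with shEZH2 and 73.6 and 86.8 CPM in control (1.21 ± 0.21). NDRG1 was at 168 and 134 CPM with shSUZ12, 46.6 and 70.4 CPM with shEZH2 and 69.0 and 105 CPM in control and did not pass. CA9, the hypoxia marker carbonic anhydrase, was at 0.670 and 0.0477 CPM with shSUZ12 and 1.30 and 0.766 CPM with shEZH2, on the lower side.

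Matrix and adhesion genes split. TNC, the matrix glycoprotein tenascin C (chromosome 9, 115019578 to 115118257, minus strand), was at 311 and 326 CPM with shSUZ12, 107 and 61.9 CPM with shEZH2 and 81.7 and 70.7 CPM in control. It was higher by 1.92 ± 0.27, and the shSUZ12 line was the one above control. The collagen VI chains COL6A1 (chromosome 21, 45981737 to 46005050, plus strand) and COL6A2 (46098097 to 46132849, plus strand) fell together. COL6A1 was at 116 and 131 CPM with shSUZ12, 267 and 253 CPM with shEZH2 and 133 and 154 CPM in control. COL6A2 was at 27.03 and 26.2 CPM with shSUZ12, 84.5 and 78.8 CPM with shEZH2 and 28.6 and 25.8 CPM in control, so for both genes the shSUZ12 line stood near control. COL6A3, the third chain, on chromosome 2, was at 15.6 and 16.0 CPM with shSUZ12 and 12.7 and 6.28 CPM with shEZH2 and was not called.

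SNAI1, a repressor of epithelial genes, was lower as well, at 1.39 and 2.05 CPM with shSUZ12, 6.51 and 6.13 CPM with shEZH2 and 1.17 and 1.09 CPM in control (a fall of 1.88 ± 0.31). Its relative SNAI2 ran the other way at 19.7 and 19.9 CPM with shSUZ12 and 10.5 and 12.1 CPM with shEZH2 and did not pass. FN1, fibronectin, was at 515 and 461 CPM with shSUZ12, 208 and 107 CPM with shEZH2 and 496 and 327 CPM in control (edgeR adjusted p = 0.0604). THY1, a fibroblast marker, had 0 counts in both shSUZ12 libraries and both control libraries, and 31 and 17 counts in the shEZH2 line (edgeR adjusted p = 0.0509). Of the 35 mesenchymal genes tested, 1 was called higher and 3 lower, and 0 of 35 keratin and epithelial adhesion genes were called by edgeR (6 higher and 7 lower at an unadjusted p under 0.05, and 2 higher and 4 lower by DESeq2). KRT8 and KRT18, the most abundant keratins there, were at 472 and 459 CPM and at 407 and 430 CPM with shSUZ12, and at 363 and 652 CPM and at 440 and 847 CPM with shEZH2.

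Integrins and guidance receptors gave both directions too. ITGB2, the leukocyte integrin beta chain, was at 2.59 and 1.48 CPM with shSUZ12, 8.29 and 8.68 CPM with shEZH2 and 43.0 and 35.1 CPM in control, and with ITGB8 it made 2 called among 16 tested integrins. ITGB2 stood below control in both lines and fell by 2.05 ± 0.30 between them. ROBO4, a guidance receptor of endothelium, was higher at 57.5 and 58.2 CPM with shSUZ12, 10.2 and 17.2 CPM with shEZH2 and 24.8 and 29.5 CPM in control. ROBO4 was the 1 called of 5 tested endothelial markers. ESAM, an adhesion molecule of endothelium, was at 122 and 141 CPM with shSUZ12, 114 and 151 CPM with shEZH2 and 210 and 192 CPM in control, and PECAM1 was at 4.47 and 7.01 CPM with shSUZ12, 6.22 and 7.87 CPM with shEZH2 and 1.85 and 2.99 CPM in control. These overlapped between the lines, as did KDR, and TIE1 was at 0.402 and 0.334 CPM with shSUZ12 and 2.36 and 0.664 CPM with shEZH2 without passing. SEMA3F, a secreted semaphorin, was lower at 2.81 and 2.72 CPM with shSUZ12, 11.9 and 8.02 CPM with shEZH2 and 4.95 and 5.60 CPM in control. L1CAM, ROBO4 and SEMA3F were the called genes among 47 tested in the guidance list.

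Growth factor carriers and TGF-beta family genes included PAPPA2, named above, and 3 further calls. PAPPA2, a protease that cleaves IGF binding proteins, was at 9.07 and 7.01 CPM with shSUZ12, 1.45 and 1.17 CPM with shEZH2 and 1.89 and 1.04 CPM in control. IGFBP2, an IGF binding protein, had 3 and 3 counts in the shSUZ12 line, 39 and 52 counts in the shEZH2 line and 4 and 5 counts in control. Each of these stood apart from control in a different line, PAPPA2 with shSUZ12 and IGFBP2 with shEZH2. INHBB, the activin B subunit, was at 1.74 and 0.858 CPM with shSUZ12, 5.11 and 5.57 CPM with shEZH2 and 70.6 and 64.9 CPM in control, far below control in both. LTBP2, a latent TGF-beta binding protein, was at 31.8 and 30.3 CPM with shSUZ12, 14.5 and 9.70 CPM with shEZH2 and 34.4 and 33.9 CPM in control (1.36 ± 0.24). The SMADs of this branch, SMAD2 and SMAD3, differed by 0.04 and 0.00.

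Interferon-stimulated genes, which defend cells against viruses, had 4 called higher and 0 lower among 45 tested (0.726% and 0.796% of all tested genes were). DDX58, the RNA sensor RIG-I, was at 70.0 and 69.9 CPM with shSUZ12, 26.2 and 22.4 CPM with shEZH2 and 54.8 and 65.7 CPM in control (1.53 ± 0.20, edgeR adjusted p = 0.0226). SAMD9L, an antiviral factor, was at 27.3 and 31.3 CPM with shSUZ12, 7.61 and 7.20 CPM with shEZH2 and 28.0 and 37.0 CPM in control, and DDX60L was at 22.8 and 20.4 CPM with shSUZ12, 9.30 and 6.49 CPM with shEZH2 and 28.6 and 26.8 CPM in control. For these genes the shEZH2 line lay below control and the shSUZ12 line near it. TRIM22, an antiviral ubiquitin ligase, was at 6.34 and 6.72 CPM with shSUZ12, 1.06 and 1.53 CPM with shEZH2 and 1.67 and 1.61 CPM in control, so there the shSUZ12 line was the one above control.

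The median of the interferon list was 0.19, being 0.41 against shEZH2 library 1 and 0.01 against library 2. Of the 45, 20 lay apart on the higher side and 8 on the lower, against 28.1% and 26.5% of all tested genes. STAT2, a transducer of interferon signals, was at 75.3 and 80.2 CPM with shSUZ12 and 37.9 and 42.7 CPM with shEZH2 (edgeR adjusted p = 0.064), whereas ISG15 and IFITM3, common interferon markers, overlapped between the lines. CIITA, the master regulator of MHC class II genes, was the 1 called of 23 antigen presentation genes, at 9.29 and 11.01 CPM with shSUZ12, 3.90 and 2.86 CPM with shEZH2 and 9.59 and 13.2 CPM in control (edgeR adjusted p = 0.0488).

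Cholesterol synthesis genes had the highest list median of all 37 lists, at 0.94 over 26 tested genes, and 25 of the 26 had a positive difference. SREBF2, the factor that drives these genes, was the 1 called, at 223 and 189 CPM with shSUZ12, 94.9 and 89.1 CPM with shEZH2 and 146 and 201 CPM in control (1.16 ± 0.21, edgeR adjusted p = 0.0488). In all, 18 lay apart on the higher side (28.1% of all tested genes did) and 0 on the lower. HMGCS1, which makes the mevalonate precursor, was at 152 and 86.7 CPM with shSUZ12 and 25.0 and 32.9 CPM with shEZH2, but at 30.5 and 94.3 CPM in control. INSIG1, the sterol sensor of the pathway, was at 526 and 270 CPM with shSUZ12, 80.7 and 129 CPM with shEZH2 and 102 and 262 CPM in control. HMGCS1 and INSIG1 therefore also differed between the libraries of the same group, in the shSUZ12 line and in control, and neither passed the test. The part of culture or library differences in this was not tested.

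**Figure D4:**
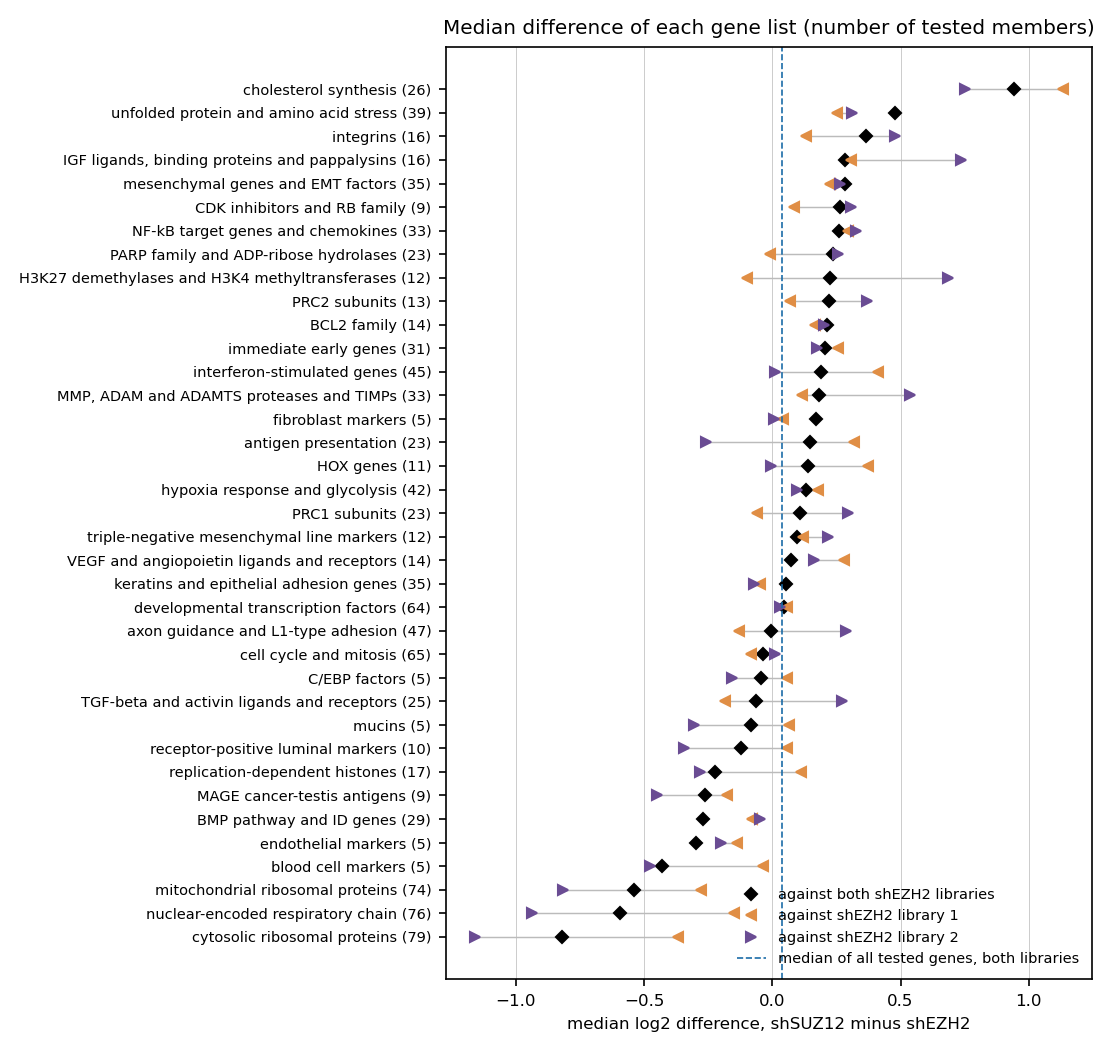
Median log2 difference over the tested members of 37 gene lists, against both shEZH2 libraries (black, edgeR fit) and against each shEZH2 library alone (triangles, CPM + 0.5), with the median of all tested genes as a dashed line. Cholesterol synthesis is at the top at 0.94, cytosolic ribosomal proteins at the bottom at -0.82, and the ribosomal median moves between -0.37 and -1.16 with the shEZH2 library used.

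Ribosomal and respiratory chain genes lay on the lower side with few calls. Cytosolic ribosomal proteins had a median of -0.82 over 79 genes, 77 of which lay apart on the lower side (26.5% of all tested genes did). Of the 79, 0 were called by edgeR. At an unadjusted p under 0.05 edgeR had 71 of the 79 lower and 0 higher, DESeq2 called 38 lower, and limma voom called 0. RPL4 was at 1443 and 1481 CPM with shSUZ12, 1822 and 2399 CPM with shEZH2 and 1141 and 937 CPM in control. The size of this shift depended on the library: the median was -0.37 against shEZH2 library 1 and -1.16 against library 2. Mitochondrial ribosomal proteins had a median of -0.54 over 74 genes, being -0.28 against library 1 and -0.82 against library 2, with MRPS26 the 1 called, at 33.6 and 36.9 CPM with shSUZ12, 74.6 and 106 CPM with shEZH2 and 39.3 and 30.4 CPM in control. Nuclear-encoded respiratory chain genes had a median of -0.59 over 76 genes, being -0.15 against library 1 and -0.94 against library 2, and 0 were called by edgeR (33 lower at an unadjusted p under 0.05, and 15 lower by DESeq2). With the length trend of the libraries removed, these medians were -0.41, -0.26 and -0.26.

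The most abundant called genes of each direction follow. ITPR3, an inositol trisphosphate receptor, was at 448 and 440 CPM with shSUZ12, 228 and 147 CPM with shEZH2 and 446 and 473 CPM in control, and CNN3, the actin-binding calponin 3, was at 462 and 374 CPM with shSUZ12, 186 and 174 CPM with shEZH2 and 455 and 459 CPM in control. EIF3I, a subunit of translation initiation factor 3, was at 417 and 408 CPM with shSUZ12, 769 and 928 CPM with shEZH2 and 366 and 326 CPM in control. SSR2, of the translocon-associated complex, was at 235 and 237 CPM with shSUZ12, 454 and 645 CPM with shEZH2 and 267 and 241 CPM in control. In these genes the shSUZ12 line was near control and the shEZH2 line away from it. PPM1F and ZFP36L1 were higher by 1.27 ± 0.21 and 1.10 ± 0.19, and PRKCSH, EBNA1BP2 and AHSA1 fell by 1.01 ± 0.18, 1.30 ± 0.21 and 1.07 ± 0.18.

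Cell growth genes were looked at next. Of 65 tested cell cycle and mitosis genes 0 were called by edgeR, with a median of -0.03 (5 at an unadjusted p under 0.05, and 1 by DESeq2). MKI67, a proliferation marker, was at 951 and 1019 CPM with shSUZ12, 1169.5 and 508 CPM with shEZH2 and 1145 and 1214 CPM in control, so the shEZH2 libraries lay on either side. Among CDK inhibitors and RB family genes, 9 were tested and 0 called by edgeR or DESeq2 (1 at an unadjusted p under 0.05), and CDKN1A, the p53 target p21, was at 78.2 and 67.5 CPM with shSUZ12, 40.2 and 50.4 CPM with shEZH2 and 27.1 and 34.7 CPM in control. Of 39 stress response genes of the unfolded protein and amino acid pathways 0 were called by edgeR. At an unadjusted p under 0.05 edgeR had 8 higher and 2 lower, DESeq2 called 2 higher and limma voom called 1 higher. The median of this list was 0.48, being 0.36 without shEZH2 replicate 1 and 0.24 without shEZH2 replicate 2. SLC7A11, the cystine transporter, was the nearest to a call by edgeR at 203 and 145 CPM with shSUZ12, 70.3 and 38.6 CPM with shEZH2 and 141 and 122 CPM in control. KLF2 was the 1 called of 31 immediate early genes, at 11.5 and 14.2 CPM with shSUZ12, 34.4 and 45.1 CPM with shEZH2 and 17.3 and 17.3 CPM in control.

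Called genes differed in transcript length. The median length of the longest transcript was 5094 bases for genes called higher, 2313 bases for genes called lower and 3367 bases for all tested genes. By quintile of length the median difference was -0.38 in the shortest quintile and 0.34 in the longest. Against shEZH2 library 1 alone these medians were -0.04 and 0.02, and against library 2 they were -0.59 and 0.70, so the trend moved with 1 library. Within the shEZH2 line, the difference of library 2 minus library 1 had a median of 0.55 in the shortest quintile and -0.66 in the longest. With the length trend removed, 208 of the 216 calls were made again.

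**Figure D5:**
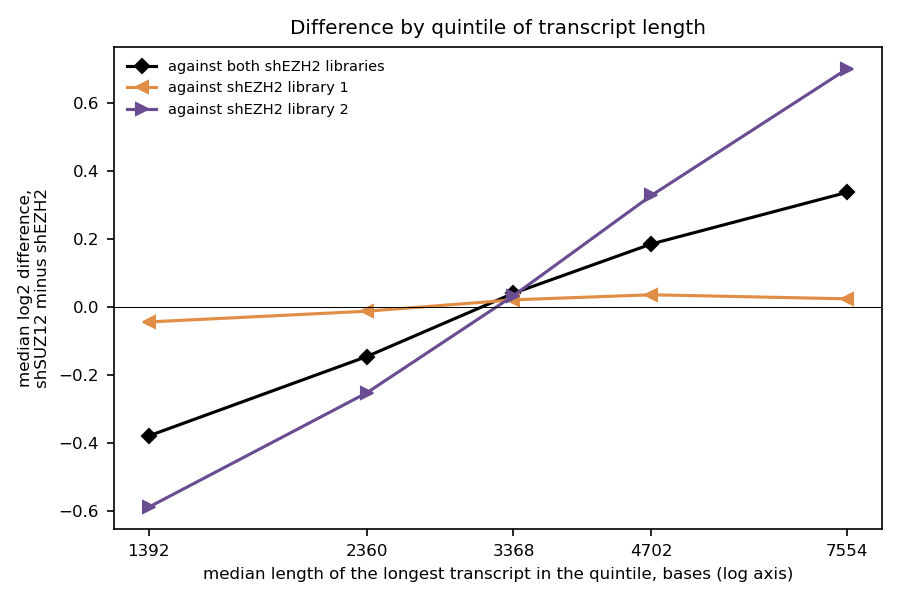
Median log2 difference of the shSUZ12 line minus the shEZH2 line in each quintile of transcript length, against both shEZH2 libraries (black), library 1 (orange) and library 2 (purple). The line for library 1 stays between -0.04 and 0.04 while that for library 2 climbs to 0.70 in the longest quintile.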

How the data were processed

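For each of 6 libraries the authors deposited raw counts by gene symbol. Of the 29748 entries, 4 name no gene (16.5 to 21.0% of all counts, multimapping reads 7.21 to 10.4%). These 4 were left out. STAR, GenomeStudio 2010.1, R 3.2.5 and GRCh38 are listed, without a role, in the submitters' processing notes. The annotation, the version of STAR and the use of strand were not given in the sources used here. Antisense partners may share reads. Groups follow the titles.

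Counts were tested in R 4.3.3 with edgeR 4.0.16 (filterByExpr, TMM, robust quasi-likelihood fit of 3 groups, 3 residual degrees of freedom), calling genes at a Benjamini-Hochberg adjusted p under 0.05. The code was tested on simulated data. SE came from the log2 difference and F. Differences from single libraries use CPM + 0.5. Alternatives included limma 3.58.1 and DESeq2 1.42.0. Floors cover counting error only.

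The members and the 37 lists were chosen with earlier results of these data known. Genes are named by rule: PARP1, EZH2 and SUZ12; the 15 called genes in each direction with the widest gap and at least 5 CPM in the higher line; up to 4 called members of each list, or its 2 most abundant members where none was called; and the 5 most abundant called genes in each direction. Other members are given as examples. Uncharacterised loci, antisense transcripts and pseudogenes are left out of the 15 and the 5, and 1 gene of the 15 is not reported here. Positions and transcript lengths are from GENCODE 29 (23620 of 29744 symbols matched; lengths for 94.4% of tested genes).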

Additional observations from a re-analysis of the deposited data

How the results depend on the processing

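The number of genes called between the lines was 216. It was 1304 with DESeq2, 1272 with the length trend removed, 718 with no filter on low counts, 1062 at an adjusted p under 0.10 and 1 in the fit of the 4 libraries alone. Leaving out 1 library gave 0 to 7590 calls. The replicate numbers gave a correlation of deviations of 0.29 between the lines, 0.011 between shSUZ12 and control and 0.088 between shEZH2 and control, and the labels give no meaning to the numbers, so these were not taken to pair the libraries, although the correlation between the lines was positive. With the replicate number as a block, 368 genes were called, 214 of the 216 among them. Genes not overlapping numbered 7750, or 275 with a gap of at least 2-fold.

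EZH2 differed by 1.86 in the fit of the 4 libraries and by 1.74 to 1.96 with 1 library left out, PARP1 by -0.32 to -0.049 and SUZ12 by -0.86 to 0.46. Of 65 calls chosen by the naming rule, 63 to 65 held with the length trend removed, the replicate block, limma voom or DESeq2. The same range held with another scaling or filter, or no robust estimate. With DESeq2, the length trend removed or no filter, far more genes were called than in the main fit. A call that held in those fits is therefore weak support. In the fit of the 4 libraries and without a control library MUC5AC alone held, and without an shSUZ12 library 0 held. Signs changed only in uncalled genes, the called ones having libraries that do not overlap, and the cause was not tested. With 1 library left out, the differences ranged over -0.25 to 0.10 for PHC2, -0.41 to 1.52 for KMT2D, -0.21 to 1.61 for KMT2A, -0.099 to 0.71 for PARP4, -0.036 to 1.37 for TNKS2, -0.49 to 0.33 for KRT8, -0.25 to 0.014 for RELA, -0.090 to 0.995 for TOP2A, -0.28 to 0.95 for MKI67, -0.30 to 1.12 for RB1, -0.56 to 0.022 for CDKN3, -0.25 to 0.44 for HSPA5, -1.44 to 0.22 for HIST1H1C, -0.51 to 0.043 for VIM and -0.11 to 0.16 for CSF1R. With the length trend removed they were -0.068 for KMT2D, 0.019 for KRT8, 0.080 for RPS18, -0.15 for MKI67, 0.16 for CDKN3, 0.0027 for HIST1H2BK, -0.11 for CSF1R, -0.21 for COL1A1 and -0.063 for PDGFRB. With 2 libraries per line, genes near the floor and those that differ between the shEZH2 libraries are measured least well.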

Other observations

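Over 705 tested genes of chromosome 6 the median difference was 0.22, the highest of 23 chromosomes, against 0.04 over all tested genes, and 41.4% of them lay apart on the higher side, against 28.1% of all tested genes. The median was 0.19 against shEZH2 library 1 and 0.18 against library 2, but single windows of 20 Mb moved with the library. From 0 to 20 Mb the median was 0.30 (0.28 against library 1 and 0.27 against library 2), and from 40 to 60 Mb, where VEGFA lies, it was 0.32 (0.33 against library 1 and 0.29 against library 2). From 20 to 40 Mb, where SOX4 lies, it was 0.20 (0.31 against library 1 and 0.05 against library 2). The highest window, from 60 to 80 Mb with 30 tested genes, was at 0.48 (0.14 against library 1 and 0.70 against library 2). The 4 windows from 80 to 160 Mb had medians of 0.08 to 0.20, from -0.10 to -0.03 against library 1 and from 0.22 to 0.33 against library 2. The last window, from 160 to 180 Mb, was at 0.17 (0.18 against library 1 and 0.19 against library 2). Against control the median of chromosome 6 was 0.14 in the shSUZ12 line and -0.06 in the shEZH2 line. The number of copies of chromosome 6 in either line was not measured.

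Called genes that are neighbours shared a direction. Among 13380 pairs of genes that follow each other among the tested genes of a chromosome, 6 pairs had both members called. The members of each of the 6 moved the same way. The same sign was found in 55.6% of all pairs, nearly all of which hold uncalled genes. Besides MUC5AC with MUC5B, COL6A1 with COL6A2, MAGEC1 with MAGEC2 and TNFSF15 with TNC, these were CLIP4 with YPEL5, at 1.47 and 1.53 on the log2 scale, and GALNT6 with SLC4A8, at 1.74 and 1.80. GALNT6 and SLC4A8 overlap in the annotation, so reads of one may be counted to the other. Other pairs lay far apart, by 957298 bases for CLIP4 with YPEL5, 292957 for MAGEC1 with MAGEC2 and 213452 for TNFSF15 with TNC.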
